A study of Rattus norvegicus with 939 samples.

Results

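The genes described here encode proteins that copy DNA and divide the cell, and their response to 125 compounds was measured in cultured primary rat hepatocytes. The 38 genes were chosen by name, as components of replication licensing, the replication fork, nucleotide supply, the cyclin-Cdk engine and the mitotic spindle. Earlier results of these data were known when the genes were chosen. Of the 38 genes, 35 had a probe set of their own among 14218 genes. Where a gene had several probe sets the one with the highest mean was used. Cdc6 and Gins2 had no probe set annotated with their symbol alone, Rrm2 was found only on 2 probe sets that it shares with Rrm2l1, and these 3 genes were not analysed here.

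The hepatocytes are parenchymal cells taken from rat liver and kept in culture without being an immortal line. They were exposed to a compound or to vehicle and harvested after 0.67 d or 1 d. Titles of the vehicle arrays name dimethyl sulfoxide (DMSO) on some arrays and not on others, also within a control set. Poly(A) RNA was hybridized to the Affymetrix Rat Genome 230 2.0 array, giving 939 arrays, of which 826 were treated and 113 received vehicle. The arrays were grouped here into 5 campaigns, which the titles and descriptions do not name. The first, with 120 compounds on 824 arrays, is by far the widest. Campaign 2 covered 4 compounds (34 arrays), campaigns 3 and 4 covered 1 compound each (12 arrays per campaign), and campaign 5 was a dose series of 6 compounds at 3 doses, at 1 d only (57 arrays). The labels give no strain or age of the donor animals. Titles of vehicle arrays carry a code that reads as a date, which was taken here as the culture day though the titles do not call it so. It differs within most control sets and is the same for all 6 vehicle arrays of campaign 4. For treated replicates the labels do not say whether they came from separate cultures. The p-values therefore measure only the spread between these arrays, which may be technical. In campaigns 1 to 3 each combination of compound and dose, called a profile below, was compared with the vehicle arrays whose description names that compound, and control arrays were shared by several compounds. A gene was called where limma, fitted with treatment and exposure time, gave a change of at least 1.5-fold and a p of at most 0.01 after Benjamini-Hochberg adjustment over the 14218 genes. Where treated and vehicle arrays are said not to overlap, the gene had already been called. The share of all genes without overlap was not counted, so this describes the spread and is no further test. All values are log2 levels or log2 changes on the deposited scale, on which levels of different genes' probe sets are not comparable.

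Before a cell can copy its DNA, the licensing factor Cdt1 and its partners load the ring of 6 MCM proteins onto origins, and the GINS complex later turns this ring into an active helicase. At the fork, replication factor C loads Pcna, the sliding clamp that holds the polymerases and repair enzymes on DNA, while ribonucleotide reductase, thymidylate synthase (Tyms) and thymidine kinase supply deoxynucleotides. E-type cyclins act at entry into S phase, and Cdk1 with A- and B-type cyclins, the Polo and Aurora kinases and the spindle checkpoint drive and time mitosis. Hepatocytes of adult liver are mostly quiescent and re-enter this cycle after injury or loss of tissue.

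Many genes of this kind are known to be regulated through E2F, CHR and CCAAT elements in their promoters. For this reason the 250 bases before the start site were examined in RefSeq promoters of build GRCr8, which matched 32 of the 38 genes. Promoters of Mcm4, Cdc6, Rrm2, Ccne2, Ccna2 and Aurkb were not analysed here. The letters TTTCCCGC or TTTGGCGC, an E2F-type site, were found on either strand in 5 of 32 (15.6%) and in 346 of 27457 promoters of all genes (1.26%). CCAAT was found in 23 (71.9%) against 34.3% of all promoters, and TTTGAA, the CHR element, in 8 (25%) against 16%. The promoters printed here are those of the gene called higher most often (Pcna), of a mitotic cyclin whose calls all coincided with those of Pcna (Ccnb1), and of the pair with the most calls in the lower direction (Mcm6 and Tyms). Each is written 5′ to 3′ on the strand of its gene and ends at the base before the start site. Capitals mark these matches, and TTTGAA, matched on neither strand, appears in none of the 4.
Pcna, chr3:139955821-139956070, minus strand: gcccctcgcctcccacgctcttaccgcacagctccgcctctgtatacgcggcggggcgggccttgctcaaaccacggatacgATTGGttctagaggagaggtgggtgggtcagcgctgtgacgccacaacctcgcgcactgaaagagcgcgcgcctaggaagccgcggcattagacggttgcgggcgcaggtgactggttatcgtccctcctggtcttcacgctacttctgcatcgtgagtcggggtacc
Ccnb1, chr2:33655226-33655475, minus strand: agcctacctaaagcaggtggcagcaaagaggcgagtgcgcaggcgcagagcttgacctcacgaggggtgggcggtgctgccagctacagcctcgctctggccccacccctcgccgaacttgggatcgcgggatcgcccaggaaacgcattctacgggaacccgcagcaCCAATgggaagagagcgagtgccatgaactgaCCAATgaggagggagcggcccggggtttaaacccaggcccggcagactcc
Mcm6, chr13:42404353-42404602, minus strand: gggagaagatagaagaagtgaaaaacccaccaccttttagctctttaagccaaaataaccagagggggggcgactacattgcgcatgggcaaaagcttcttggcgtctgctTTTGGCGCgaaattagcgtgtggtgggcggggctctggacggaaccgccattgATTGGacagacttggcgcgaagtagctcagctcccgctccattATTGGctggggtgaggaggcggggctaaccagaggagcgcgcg
Tyms, chr9:120776084-120776333, minus strand: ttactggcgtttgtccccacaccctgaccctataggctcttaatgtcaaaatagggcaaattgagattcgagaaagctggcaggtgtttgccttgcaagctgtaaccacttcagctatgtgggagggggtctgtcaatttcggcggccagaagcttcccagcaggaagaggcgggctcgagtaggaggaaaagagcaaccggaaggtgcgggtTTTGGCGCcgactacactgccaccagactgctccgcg
Pcna holds CCAAT on the reverse strand 168 bases before the start, Ccnb1 holds it on the forward strand at 82 and 50 bases, and Mcm6 holds it on the reverse strand at 86 and 43 bases together with an E2F-type match at 139 bases. Tyms has an E2F-type match 37 bases before the start and no CCAAT. These matches describe the letters only and were not tested as sites.

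A few facts about the arrays bear on what follows. A clofibrate array at 0.67 d and a gemfibrozil array at 1 d stood apart from the other arrays, and leaving both out gave the same counts of 248 higher and 38 lower calls that are described below. In campaign 4, vehicle control replicate 5 stood apart in these genes themselves. Hepatocyte markers were high in the vehicle arrays of campaigns 1 to 3 (8 of 9 listed markers were measured, from Hnf4a with a mean of 10 up to Alb at 14.4), and the mean over the listed markers was 6.11 for Kupffer cells, 5.64 for endothelial, 5.37 for stellate and 5.36 for bile duct cells, beside array medians between 5.41 and 5.73 over all probe sets. In such bulk RNA, fewer cells that express a gene and less of its RNA per cell cannot be told apart.

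Over the 128 profiles of campaigns 1 to 3, the replication and mitosis genes were more often called higher than genes in general and seldom called lower. Of 4480 tests of these genes, 248 were called higher (5.54%, against 3.67% of all tests over all genes) and 38 lower (0.848%, against 4.92%). At least 1 gene was called in 72 profiles and none in 56, and 7 genes (Mcm5, Cdc20, Plk1, Ttk, Birc5, Cenpf and Kif20a) were called in no profile. Calls were concentrated: Pcna with 44, Cdt1 with 37 and Bub1 with 21 held 102 of the higher calls (41.1%), and Tyms alone held 26 of the lower calls. Without Pcna, Cdt1 and Bub1, the share of higher calls in the remaining genes was not above that of all tests. Levels were low for many of them, and 20 of the 35 lay below the mean array median, but these 20 still held 134 higher calls. Among all genes with a mean level below the median of these genes (5.34), 0.77% of tests were called higher and 0.922% lower.

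**Figure D1:**
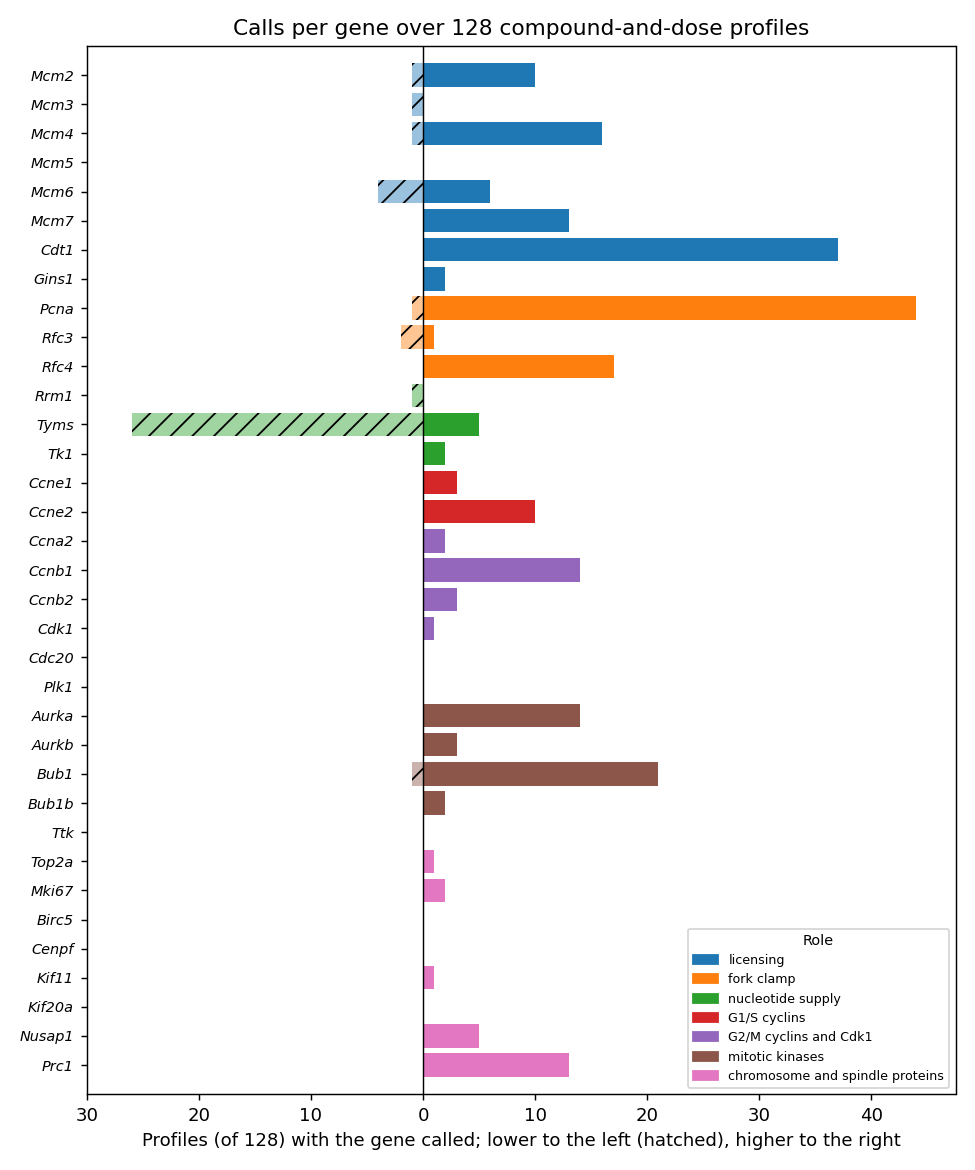
Number of profiles, of 128, in which each of 35 genes was called lower (hatched bars to the left) or higher (bars to the right) than vehicle, coloured by role. Pcna (44), Cdt1 (37) and Bub1 (21) have the longest bars to the right, and Tyms has 26 profiles to the left.

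Among the licensing and helicase genes, of which 8 of 10 were measured, 84 tests were called higher (8.2%) and 7 lower (0.684%), beside the 3.67% and 4.92% of all tests against which each role's shares are to be read. Cdt1, which brings the MCM ring to origins, had a vehicle level of 4.18 to 5.67 (median 4.89, 104 arrays) and a median change of 0.29 over the profiles. Its 37 calls were spread over 10 of the control sets. Within the MCM ring the subunits did not respond alike: Mcm4 was called higher in 16 profiles, Mcm7 in 13, Mcm2 in 10 and Mcm6 in 6, whereas Mcm3 and Mcm5 were never called higher. The value of Mcm5 that lay farthest above vehicle was 0.38, with valeric acid, and it was not called. Gins1, a GINS subunit, was called higher in 2 profiles.

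The fork clamp and its loader (Pcna, Rfc3 and Rfc4) had the highest share of calls of any role, with 62 tests higher (16.1%) and 3 lower (0.781%). Pcna had a vehicle level between 9.63 and 10.86 with a median of 10.08, and its median change over the profiles was 0.44. Rfc4, a clamp loader subunit, was called higher in 17 profiles, against 1 for Rfc3, another subunit of the same loader.

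Nucleotide supply was called lower more often than higher, through a single gene. Over Rrm1, Tyms and Tk1, 7 tests were called higher (1.82%) and 27 lower (7.03%), and 26 of the 27 were Tyms, which makes thymidylate from deoxyuridylate. Tyms had a vehicle level of 6.53 to 7.90 (median 7.27) and a median change of -0.24. With isotretinoin it changed by -1.41, with zidovudine and with 4,4'-methylenedianiline by -1.02, and with sotalol by -0.99, and it was called lower in each. Tyms was called higher with 5 compounds, namely 3-methylcholanthrene (1.17, SE 0.113), idarubicin (0.98), streptozotocin (0.92), N-nitrosodiethylamine (0.88) and monocrotaline (0.66). Rrm1, the large subunit of ribonucleotide reductase, was called once, lower with sporidesmin A, and Tk1, which salvages thymidine, was called higher in 2 profiles.

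The cyclins and kinases of S phase and mitosis were called less often than the replication fork, and in the higher direction but for 1 call. Ccne1 and Ccne2, the cyclins of S phase entry, had 13 higher calls (5.08%), 10 of them in Ccne2, and the second probe set of Ccne2 did not follow the one used (r = -0.12 over the arrays). Of the 5 genes of the Cdk1 group, with 20 higher calls (3.12%, a share below that of all tests) and none lower, Ccnb1 held 14 calls, whereas Cdk1 itself was called in 1 profile and Cdc20, an activator of the anaphase-promoting complex, in none. The 6 mitotic kinases had 40 higher calls (5.21%) and 1 lower (0.13%), of which 21 higher calls were Bub1, a spindle checkpoint kinase, and 14 were Aurka, the centrosomal Aurora kinase. Plk1, the Polo kinase that opens mitosis, and Ttk, a checkpoint kinase, stayed uncalled throughout, with an outermost Plk1 value of 0.38 under ifosfamide. The 8 chromosome and spindle proteins had 22 higher calls (2.15%, also below that of all tests) and none lower, 13 of them in Prc1, which bundles midzone microtubules, and 5 in Nusap1, a microtubule-binding protein.

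The usual markers of cycling cells were near the lower end of the array and seldom moved. Mki67 lay between 2.99 and 4.54 in vehicle (median 3.47), Top2a, the topoisomerase of dividing cells, between 3.72 and 4.58 (median 4.05), Ccna2 between 3.07 and 4.72 (median 3.46) and Cdk1 between 3.68 and 5.28 (median 4.30). Mki67 and Ccna2 were each called higher in 2 profiles, and Top2a and Cdk1 in 1 each.

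Calls of these genes often coincided in the same profiles. Pcna and Cdt1 were both called higher in 30 profiles, which is 68.2% of the profiles of Pcna and 81.1% of those of Cdt1. All 14 profiles with Ccnb1 called higher also had Pcna called higher, and Bub1 and Pcna shared 18 (85.7% of the profiles of Bub1 and 40.9% of those of Pcna). Since compounds share control arrays, these profiles are not independent of each other. Genes called often also meet in the profiles with many genes called, and what this alone would give was not computed.

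**Figure D2:**
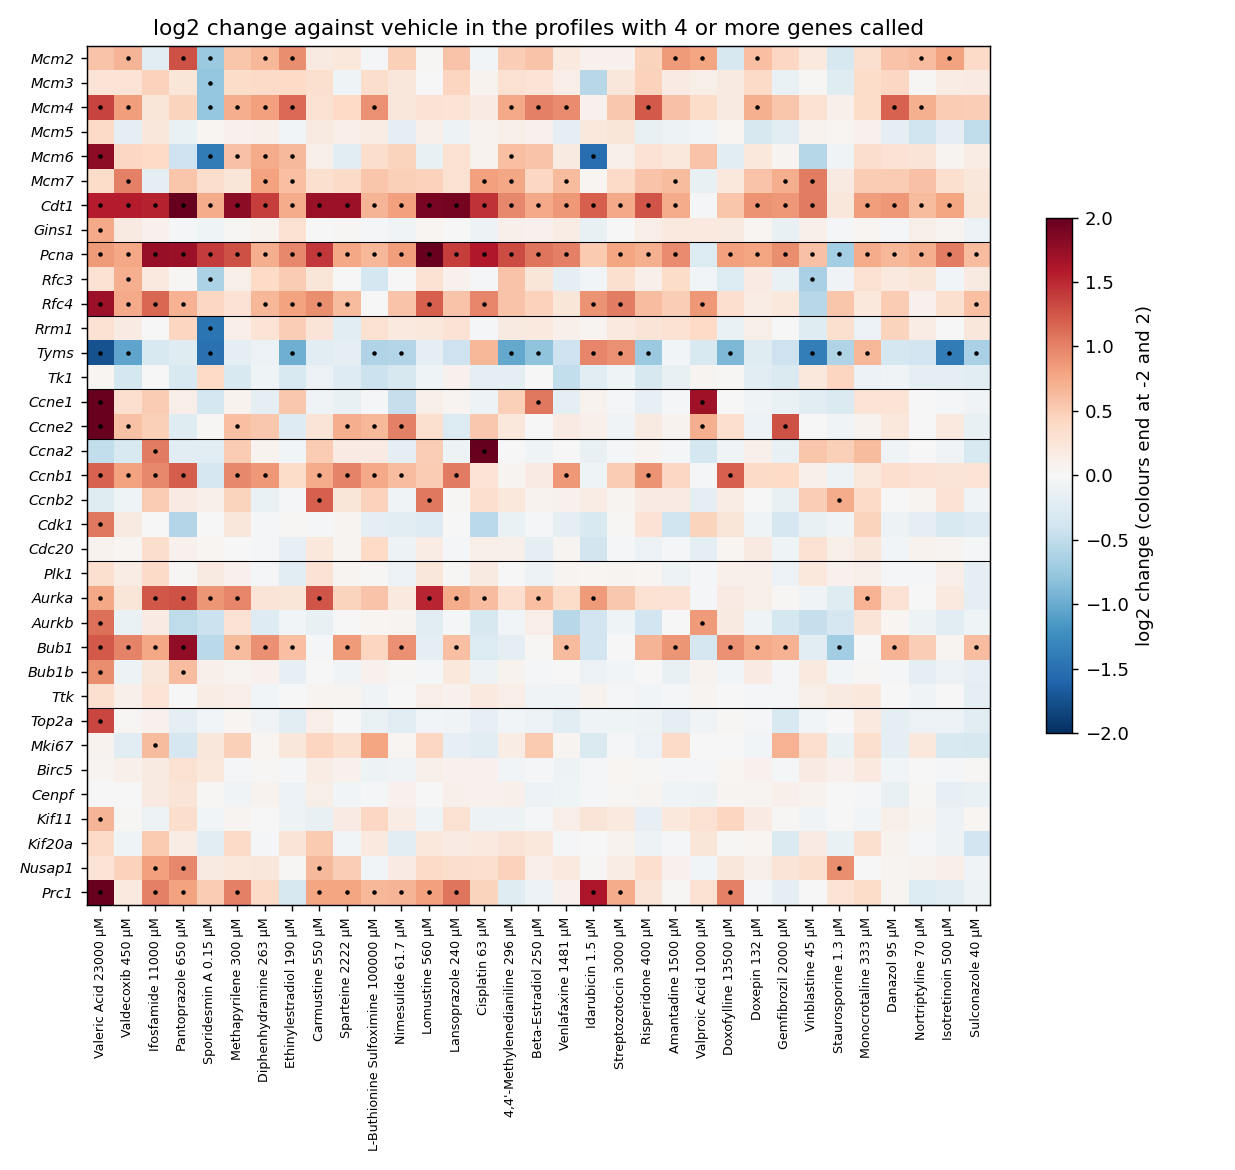
log2 change against vehicle of 35 genes (in role order, separated by lines) in the 33 profiles with at least 4 genes called; a dot marks a call and colours end at -2 and 2. Red with dots runs along Cdt1 and Pcna, whereas valeric acid, at the left edge, has dots in every role group and Tyms is blue with dots in 14 of the columns.

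Valeric acid, a short-chain fatty acid tested at 23000 µM, gave the broadest response, with 17 of 35 genes higher and 1 lower (against 13.7% of all genes higher and 14.7% lower), and a median change of 0.57 in these genes beside 0.005 over all genes. Ccne2 lay between 6.43 and 7.16 on the treated arrays (median 7.01) and between 4.28 and 4.57 on the 6 controls (median 4.44), a change of 2.45 (SE 0.124, 5.47-fold, adjusted p = 3e-09). The second probe set of Ccne2 does not follow this one, and with the median of its probe sets the change was 1.11 and still called. Prc1 read 7.02, 7.47 and 8.50 (lowest, median, highest) against 5.26, 5.45 and 5.71 in vehicle, a change of 2.12 (SE 0.167). Ccne1 read 8.14, 8.40 and 9.05 against 6.29, 6.50 and 6.58, a change of 2.02 (SE 0.131). In each of these 3 genes every treated array was above every control array. Mcm6 rose from 6.27, 6.32 and 6.50 in vehicle to 7.83, 8.17 and 8.31 (change 1.79, SE 0.0792), and Rfc4 from 6.54, 6.62 and 6.96 to 8.18, 8.36 and 8.56 (change 1.71). Top2a (5.03, 5.32 and 5.61 against 3.83, 3.96 and 4.19, change 1.33) and Cdk1 (5.08, 5.37 and 5.75 against 4.04, 4.28 and 4.59, change 1.05) were called in this profile only. None of these 4 genes overlapped between treated and vehicle arrays. The other genes called higher were Cdt1 (1.56), Mcm4 (1.35), Bub1 (1.22), Ccnb1 (1.18), Aurkb (1.10), Bub1b (0.93), Pcna (0.85), Aurka (0.78), Gins1 (0.76) and Kif11, a spindle motor (0.68). Tyms went down, from 7.08, 7.35 and 7.47 in vehicle to 5.19, 5.58 and 6.06 (change -1.74, SE 0.123, adjusted p = 4.91e-08), again without overlap. Mki67 (0.08) and Ccna2 (-0.49) were not called. Summed hepatocyte marker levels overlapped between treated (71100 to 74700) and vehicle arrays (67700 to 75000), as did those of Kupffer cell markers (1270 to 3070 against 1240 to 3330), with none of either list called. Of the stellate markers 2 were called lower (summed level 230 to 346 against 294 to 474) and of the endothelial markers 1 (115 to 457 against 153 to 914). Summed bile duct markers lay above vehicle (557 to 786 against 448 to 547) with none called. The part of these markers in the result was not tested.

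Valproic acid, a branched fatty acid and histone deacetylase inhibitor, was tested at 1000 µM, a lower dose, so its values stand beside those of valeric acid without a comparison. It had 5 genes higher and none lower (5.54% and 2.98% of all genes): Ccne1 (1.69), Rfc4 (0.86), Aurkb (0.85), Mcm2 (0.79) and Ccne2 (0.73). Cdt1 (-0.02), Pcna (-0.28) and Prc1 (0.30) were not called.

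Alkylating and platinum drugs bind or cross-link DNA, and ifosfamide, lomustine, carmustine and cisplatin each had Pcna, Cdt1, Aurka and Rfc4 called higher, whereas busulfan and chlorambucil had no gene called. With ifosfamide at 11000 µM 10 genes were higher and none lower (9.59% and 15.4% of all genes), and since the median over all genes was itself shifted by 0.14 in this profile, the median of 0.35 in these genes is to be read against that. Pcna read 11.73, 11.93 and 12.10 on the treated arrays against 9.74, 10.13 and 10.86 on 32 controls (change 1.75, SE 0.112, 3.36-fold, adjusted p = 6.69e-17). Cdt1 read 6.01, 6.56 and 6.61 against 4.46, 4.91 and 5.66 (change 1.54), and Aurka 6.10, 6.46 and 6.70 against 4.89, 5.14 and 5.76 (change 1.24). The groups did not overlap in these 3 genes. Ifosfamide was 1 of 2 profiles with Mki67 called, at 3.85, 3.99 and 4.15 against 2.99, 3.31 and 3.77 (change 0.63). Ccna2 was called too (3.82, 4.22 and 6.07 against 3.15, 3.42 and 4.26, change 1.03), but here treated and vehicle arrays overlapped. Endothelial markers fell with ifosfamide (2 called lower, summed level 117 to 193 against 139 to 952), 2 hepatocyte markers were called lower and 1 Kupffer marker higher, and their part in the result was not tested.

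The nitrosoureas lomustine (560 µM) and carmustine (550 µM) were tested at unequal doses and their values are given side by side. Lomustine had 6 genes higher and none lower (11.8% and 15.6% of all genes), with Pcna at 11.61, 12.12 and 12.24 against 9.63, 10.00 and 10.34 (change 2.01, SE 0.106, 4.02-fold, adjusted p = 2.93e-10). Cdt1 changed by 1.91 (5.94, 6.86 and 7.41 against 4.72, 4.92 and 5.12) and Aurka by 1.52 (6.21, 6.69 and 6.93 against 4.81, 5.14 and 5.36), each without overlap. Carmustine had 8 genes higher and none lower (9.3% and 14.2%), among them Cdt1 (1.72), Pcna (1.42), Aurka (1.26) and Rfc4 (0.92). Ccnb2, a B-type cyclin called in only 3 profiles, was higher with both, at 5.26, 5.92 and 6.44 with lomustine against 4.64, 4.91 and 5.24 (change 1.06) and at 5.52, 5.98 and 6.88 with carmustine against 4.79, 4.96 and 5.11 (change 1.20). With carmustine the calls of Cdt1 and Aurka were lost without replicate 2 (adjusted p = 0.0108 and 0.0124), and those of Cdt1, Aurka and Ccnb2 at 1 d alone (adjusted p from 0.0238 to 0.0295), while Ccnb2 with lomustine was lost at 0.67 d alone (adjusted p = 0.0102). Endothelial markers were lower with both, 2 being called with lomustine (summed level 106 to 160 against 236 to 375) and 3 with carmustine (147 to 314 against 374 to 819). Hepatocyte markers were called lower in 2 cases with each, stellate markers in 2 with lomustine and 1 with carmustine, and 1 Kupffer marker was higher with lomustine. Their part in the result was not tested.

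Cisplatin at 63 µM had 6 genes higher and none lower (10.4% and 14.5%). Pcna read 11.42, 11.64 and 11.80 against 9.78, 10.00 and 10.68 (change 1.59) and Cdt1 6.16, 6.42 and 7.19 against 4.79, 5.10 and 5.67 (change 1.45), without overlap. Ccna2, the S and G2 phase cyclin, spread widely, at 4.25, 5.58 and 7.23 against 3.25, 3.58 and 4.59, and the change of 2.02 (SE 0.399, adjusted p = 0.00054) was no longer called with hybridization day as a fixed block (adjusted p = 0.024) or at 1 d alone (adjusted p = 0.0314). With cisplatin 1 hepatocyte, 1 endothelial and 1 stellate marker were called lower and 1 bile duct marker higher (summed level 897 to 1300 against 462 to 997), and their part was not tested.

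Streptozotocin, a glucose-linked nitrosourea, had 5 genes higher at 3000 µM and none lower, in a profile with only 1.72% of all genes higher and 3.11% lower: Rfc4 (1.02), Tyms (0.92), Pcna (0.78), Cdt1 (0.75) and Prc1 (0.74). With hybridization day as a fixed block Pcna (adjusted p = 0.0116) and Cdt1 (adjusted p = 0.0257) were no longer called, Cdt1 was lost without any 1 replicate, and Rfc4, Pcna and Prc1 were lost without replicate 3. In the 1 d arrays alone none of the 5 was called (adjusted p from 0.0513 to 0.3), and 1 hepatocyte marker was called lower. Cyclophosphamide at 1320 µM had 1 gene higher and none lower (3.41% and 6.08%), Pcna, at 10.70, 10.96 and 11.27 against 9.63, 10.00 and 10.34 (change 0.95). This call was lost with hybridization day as a fixed block (0.84, adjusted p = 0.012) and at 0.67 d alone (adjusted p = 0.0104), and 3 endothelial (summed level 94.1 to 111 against 236 to 375), 1 hepatocyte and 1 stellate marker were called lower, whose part was not tested. Busulfan at 500 µM and chlorambucil at 1540 µM had none called (0% and 0.809% of all genes higher, 0.141% and 0.162% lower), as had the antimetabolites 6-mercaptopurine and azathioprine at 0.5 µM (0.0352% and 0% of all genes higher, 0.513% and 0.0422% lower).

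**Figure D3:**
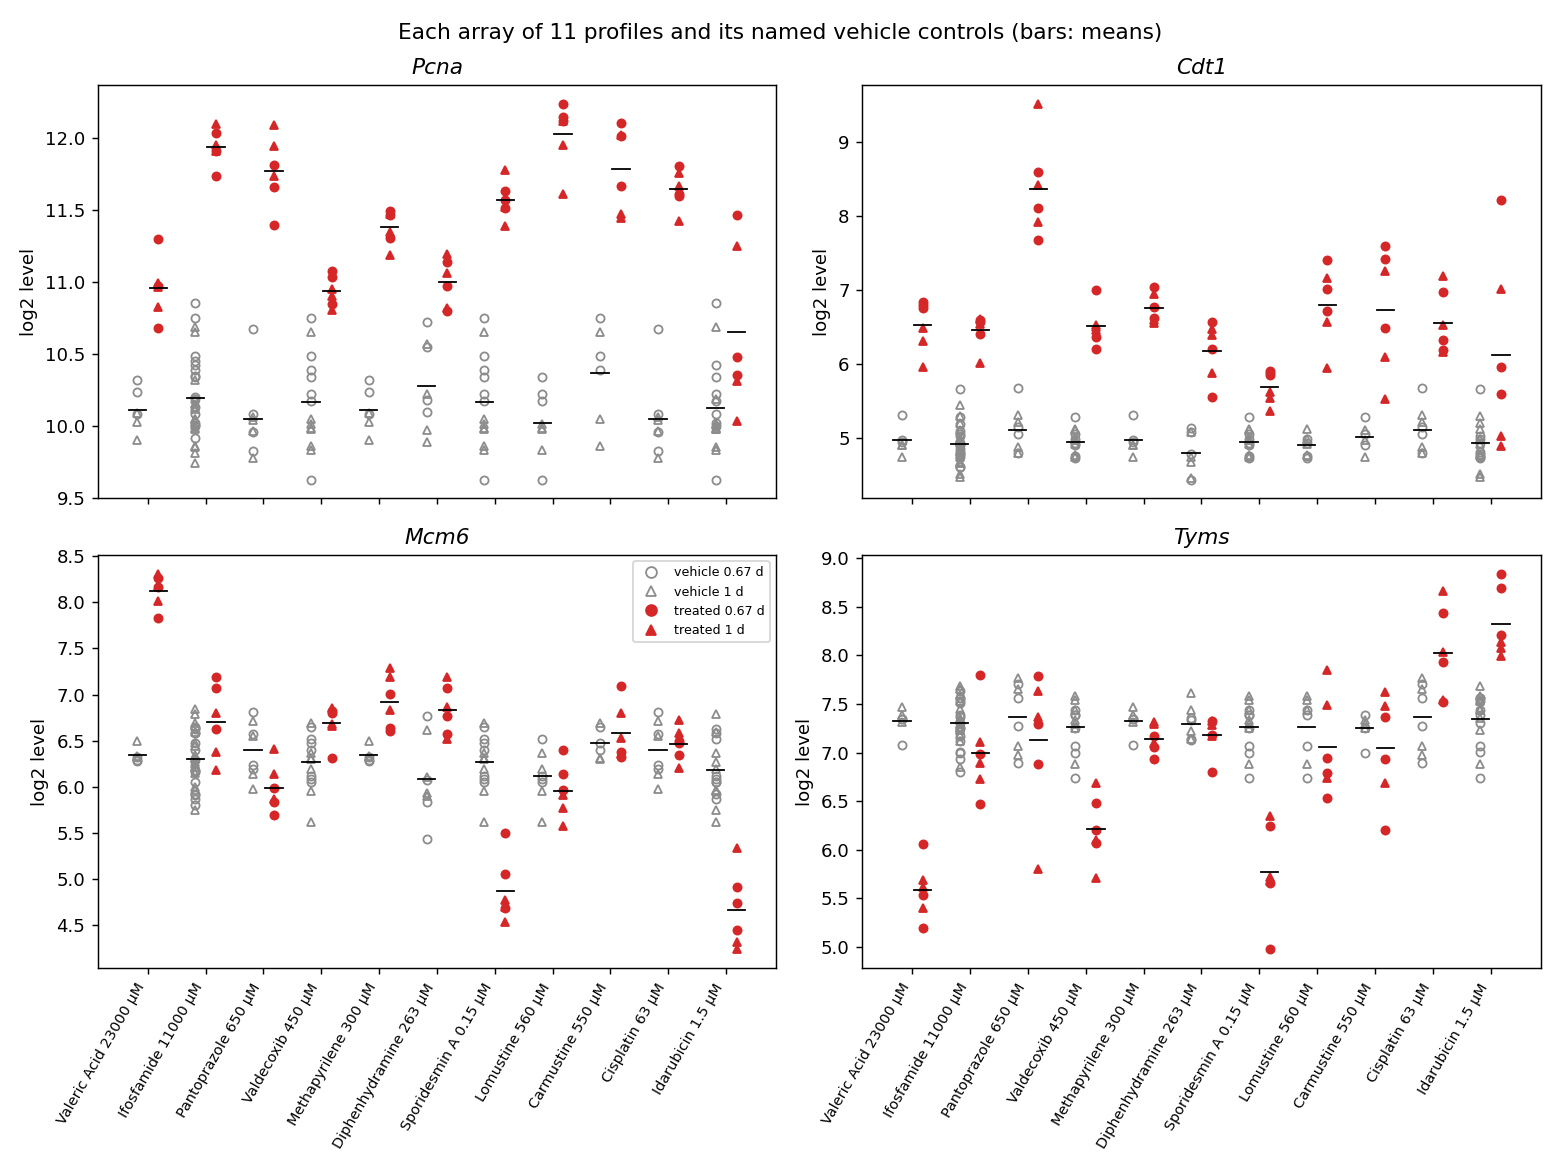
log2 level of Pcna, Cdt1, Mcm6 and Tyms on every treated array (filled) and its named vehicle arrays (open) in 11 profiles, circles at 0.67 d and triangles at 1 d, with bars at group means. Pcna with lomustine lies at 11.61 to 12.24 against 9.63 to 10.34 in vehicle, whereas the idarubicin arrays spread from within the vehicle range to above it in Pcna and lie below all vehicle arrays in Mcm6.

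The substituted benzimidazoles that block the gastric proton pump were tested at 4 different doses and are not compared with each other. Pantoprazole at 650 µM had 10 genes higher and none lower (14.4% and 15.1% of all genes). Cdt1 read 7.68, 8.26 and 9.53 against 4.79, 5.10 and 5.67 on 8 controls, and its change of 3.27 (SE 0.237, 9.64-fold, adjusted p = 2.26e-08) exceeded that of any other of these genes in any profile. Bub1 read 5.78, 6.36 and 7.07 against 4.26, 4.62 and 4.80 (change 1.78), and Pcna 11.39, 11.77 and 12.09 against 9.78, 10.00 and 10.68 (change 1.72). No treated array overlapped with vehicle in these 3 genes, nor in Aurka (6.11, 6.59 and 6.66 against 4.98, 5.19 and 5.40, change 1.27). Mcm2 was higher by 1.27 and Ccnb1 by 1.22. Summed hepatocyte markers were lower in part (52800 to 67100 against 64100 to 73600, with 3 called lower), 2 endothelial markers were called lower and Kupffer markers went either way (1 higher, 1 lower), and their part in the result was not tested. With lansoprazole at 240 µM 6 genes were higher and none lower (10.4% and 11.4%), among them Cdt1 (1.91), Pcna (1.38), Prc1 (1.08) and Ccnb1 (1.04). Omeprazole at 400 µM had 2 higher and none lower (5.06% and 7.25%), Cdt1 (0.87) and Pcna (0.73). Rabeprazole at 333 µM had 2 higher and 1 lower (6.96% and 7.86%), with Pcna at 0.96, Tyms at -0.93 and Cdt1 at 1.06 with an SE of 0.452 (adjusted p = 0.0801), which was not called.

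Drugs that are not used for an action on DNA also reached the broader responses. Methapyrilene, an antihistamine and rat liver carcinogen, had 9 genes higher at 300 µM and none lower (6.45% and 8.97% of all genes). Cdt1 read 6.55, 6.69 and 7.04 against 4.74, 4.92 and 5.31 (change 1.79, SE 0.0975, adjusted p = 6.83e-08), Pcna 11.19, 11.40 and 11.49 against 9.90, 10.09 and 10.32 (change 1.27), and Prc1 6.33, 6.44 and 6.65 against 5.26, 5.45 and 5.71 (change 1.01). The treated arrays were above all controls in each, while 3 hepatocyte markers were called lower (summed level 61300 to 69200 against 67700 to 75000), whose part was not tested. Diphenhydramine, another antihistamine, had 9 higher and none lower at 263 µM (6.34% and 6.77%), with Cdt1 at 1.38, Bub1 at 0.92, Ccnb1 at 0.87, Mcm4 at 0.83, Mcm7 at 0.80 and Mcm6 at 0.75. With diphenhydramine 2 hepatocyte markers were called lower (summed level 59100 to 73000 against 66700 to 75300), whose part was not tested. Valdecoxib, a cyclooxygenase-2 inhibitor, had 10 higher and 1 lower at 450 µM (12.2% and 13.3%), with Cdt1 at 1.57, Mcm7 at 1.01, Bub1 at 1.00 and Mcm4 at 0.83, and Tyms lower by -1.05. Without the arrays numbered replicate 1 the valdecoxib count was 6. In this profile 2 hepatocyte markers (summed level 59400 to 67400 against 68600 to 75600), 3 endothelial and 1 stellate marker were called lower and 1 Kupffer marker higher, and their part was not tested. Ethinylestradiol, a synthetic oestrogen, had 8 higher and 1 lower at 190 µM (10.5% and 8.72%), among them Mcm4 (1.13), Pcna (0.96) and Mcm2 (0.93), with Tyms at -0.98. L-buthionine sulfoximine, which blocks glutathione synthesis, had 6 higher and 1 lower at 100000 µM (7.29% and 8.78%), led by Mcm4 (0.92) and Ccnb1 (0.75). Mcm4 was no longer called with hybridization day as a fixed block (0.67, adjusted p = 0.0122), nor was Cdt1 (0.47, adjusted p = 0.0506), and Ccnb1 was at 0.50 and uncalled with the median of its probe sets. Markers called lower in these arrays were 2 of hepatocytes (summed level 55700 to 69900 against 63300 to 77100), 2 endothelial and 1 of bile ducts, whose part was not tested.

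**Figure D4:**
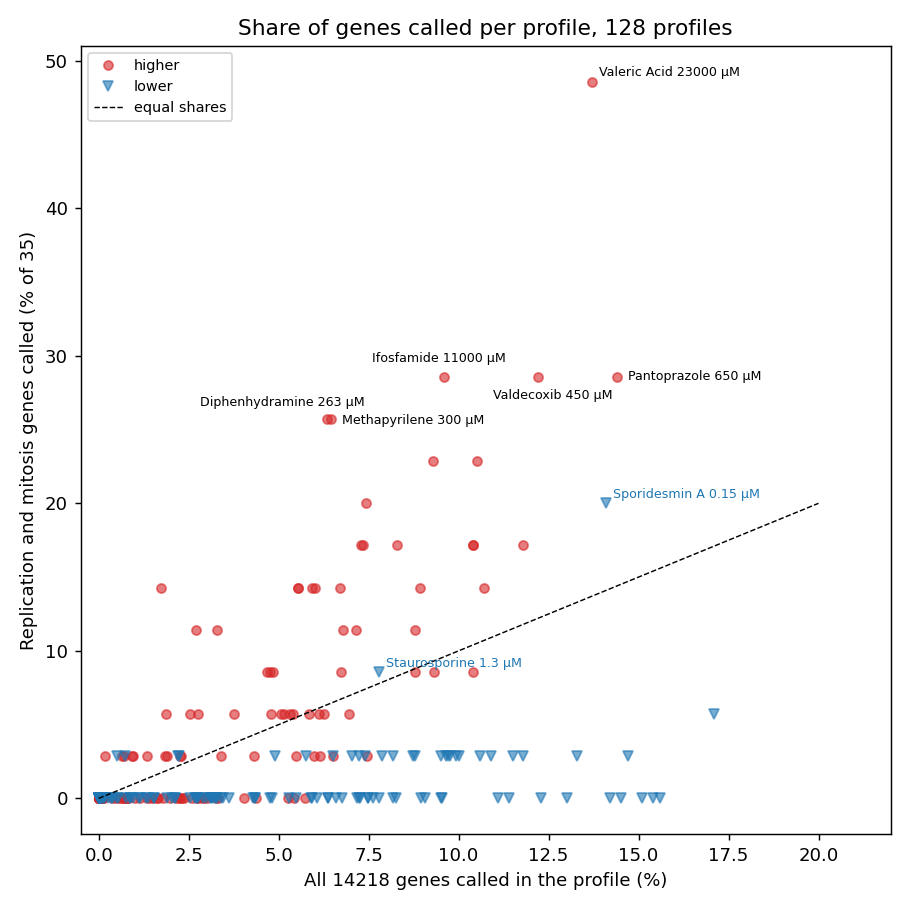
Share of the 35 genes called (vertical axis, %) against the share of all 14218 genes called (horizontal axis, %) in each of 128 profiles, circles for higher and triangles for lower; the dashed line marks equal shares. Valeric acid lies farthest above the line with 17 genes higher, whereas most lower points stand for 0 or 1 gene and sporidesmin A stands out among them with 7 genes lower.

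Topoisomerase II poisons, which trap the enzyme on cut DNA, gave a different picture in Mcm6. All 4 profiles with this helicase subunit lower were idarubicin, daunorubicin, etoposide and sporidesmin A. With idarubicin at 1.5 µM 5 genes were higher and 1 lower (5.92% and 7.04% of all genes), and Mcm6 read 4.24, 4.59 and 5.33 against 5.62, 6.10 and 6.79, a change of -1.52 (SE 0.159, adjusted p = 2.84e-08) without overlap. Tyms was higher (7.99, 8.17 and 8.84 against 6.74, 7.44 and 7.69, change 0.98), also without overlap. Prc1 (5.81, 7.01 and 9.55 against 5.08, 5.60 and 6.21, change 1.62, SE 0.294) and Cdt1 (4.89, 5.77 and 8.22 against 4.46, 4.92 and 5.66, change 1.19) overlapped with vehicle, and Cdt1 was at 0.52 and no longer called without replicate 2. At 1 d alone neither Prc1 (adjusted p = 0.0218) nor Cdt1 (adjusted p = 0.141) was called. With idarubicin 3 endothelial (summed level 104 to 121 against 139 to 702), 1 stellate and 1 hepatocyte marker were called lower and 1 bile duct marker higher, and their part was not tested. Daunorubicin at the same 1.5 µM had none higher and 1 lower (0.71% and 0.499%), Mcm6 at -1.02 (4.80 to 5.65 against 5.75, 6.16 and 6.79), which was lost without replicate 2 (adjusted p = 0.0105) and without replicate 3 (-0.75, adjusted p = 0.0329), as well as in the arrays of either exposure time alone. Etoposide at 125 µM had none higher and 1 lower (0.753% and 0.739%), Mcm6 at -0.75, with overlap (5.17 to 5.84 against 5.44, 6.17 and 6.85). This call was lost with hybridization day as a fixed block (adjusted p = 0.0794) and without replicate 1 (adjusted p = 0.0936). It was also lost at 1 d alone (adjusted p = 0.0268) and at 0.67 d alone (adjusted p = 0.071). Doxorubicin at 1.5 µM had none called (0.724% and 0.387%). Its Mcm6 change was -0.89 (SE 0.204, adjusted p = 0.0156, 4.53 to 5.80 against 5.62, 6.10 and 6.52). Endothelial markers were called lower in these profiles, 1 with daunorubicin, 2 with etoposide and 2 with doxorubicin. With daunorubicin 1 bile duct marker was higher. The part of these markers was not tested.

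Because 3 anthracyclines shared the dose of 1.5 µM, and azathioprine and the 6-mercaptopurine it releases shared 0.5 µM, the change against vehicle was also compared between these compounds, in 4 pairs with p-values adjusted over all genes of all pairs. Idarubicin lacks the methoxy group of daunorubicin, and doxorubicin carries a hydroxyl group that daunorubicin lacks. Between idarubicin and daunorubicin 1 of the 35 genes differed in the higher direction and none in the lower (2.48% and 3.02% of all genes): the change of Tyms was greater with idarubicin by 0.76 (95% interval 0.46 to 1.07, adjusted p = 0.000301), and without the arrays numbered replicate 3 it was not called. The difference in Mcm6 was -0.50 (-0.91 to -0.09, adjusted p = 0.135) and that in Prc1 0.95 (0.36 to 1.54, adjusted p = 0.0279), and neither was called. Between idarubicin and doxorubicin none of the 35 was called (2.13% and 2.43% of all genes; 8 had an unadjusted p under 0.05, and none was called by the unmoderated test), with differences of -0.63 in Mcm6 (-1.05 to -0.21, adjusted p = 0.0484) and 0.50 in Tyms (0.18 to 0.81, adjusted p = 0.0334). Between daunorubicin and doxorubicin none was called (0% and 0.0211%; 1 had an unadjusted p under 0.05, and none was called by the unmoderated test). Their difference in Mcm6 was -0.13, with an interval from -0.62 to 0.37, which leaves room for changes past the 1.5-fold bound in the lower direction. Between 6-mercaptopurine and azathioprine none was called (0% in each direction, none with an unadjusted p under 0.05 and none by the unmoderated test), and the difference in Mcm6 was -0.03 (-0.57 to 0.52).

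Sporidesmin A, a fungal toxin that cycles redox reactions through its disulfide, was the profile with the most genes lower. At 0.15 µM 7 genes were lower and 3 higher (14.1% and 4.85% of all genes). Tyms read 4.97, 5.70 and 6.35 against 6.74, 7.32 and 7.59 (change -1.49), Rrm1 5.36, 5.64 and 6.13 against 6.91, 7.07 and 7.64 (change -1.46, SE 0.114, adjusted p = 4.63e-10), and Mcm6 4.53, 4.74 and 5.49 against 5.62, 6.31 and 6.69 (change -1.39). Mcm3, at 5.19, 5.58 and 5.69 against 5.99, 6.25 and 6.47, changed by -0.77 in its only call. These 4 genes did not overlap with vehicle, whereas Mcm4 (-0.77), Mcm2 (-0.74) and Rfc3 (-0.64) did. In the same arrays Pcna was higher (11.39, 11.54 and 11.78 against 9.63, 10.11 and 10.75, change 1.40), as were Aurka (5.69, 6.08 and 6.37 against 4.81, 5.18 and 5.45, change 0.89) and Cdt1 (5.36, 5.74 and 5.90 against 4.72, 4.95 and 5.28, change 0.75). No hepatocyte or other liver cell marker on the lists was called in this profile (hepatocyte sum 68500 to 77400 against 68600 to 75600). With renewed quantile normalization 6 genes were called higher.

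Microtubule poisons, which arrest dividing cells in mitosis, did not raise the spindle genes here. With vinblastine at 45 µM 3 genes were higher and 2 lower (10.4% and 17.1% of all genes), Mcm7 (9.16, 9.47 and 9.78 against 8.06, 8.46 and 8.74, change 1.03), Cdt1 (1.04) and Pcna (0.59) among the first, and Tyms (5.33, 5.92 and 6.39 against 6.80, 7.24 and 7.66, change -1.39) and Rfc3 (-0.65) among the second. With the replicate number as a block Rfc3 was at -0.47 and no longer called, and Pcna was at 0.58 without replicate 1 and 0.48 without replicate 3, short of the fold bound. In these arrays 6 hepatocyte markers were called lower (summed level 39300 to 62900 against 63300 to 77100), and their part was not tested. With colchicine at 2000 µM 2 genes were higher and 1 lower (6.11% and 9.94%), Pcna (1.26), Gins1 (0.62) and Tyms (-1.42; 5.60 to 6.24 against 6.80, 7.26 and 7.66). Gins1 fell short of the fold bound without replicate 2 (0.58) and without replicate 3 (0.57). In these arrays 3 hepatocyte markers (summed level 58400 to 68100 against 63300 to 77100), 1 Kupffer and 2 endothelial markers were called lower, and their part was not tested. At 1000 µM none was higher and 1 lower (3.27% and 7.39%), Tyms at -0.67, which fell short of the fold bound with the replicate block (-0.58). Griseofulvin, which also acts on microtubules, had none called at 75 µM (0.542% and 1.13%), and cytochalasin B, which acts on actin, had none at 167 µM (2.15% and 3.17%).

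Among inhibitors of signalling, staurosporine, a broad kinase inhibitor, had 2 genes higher and 3 lower at 1.3 µM (2.77% and 7.78% of all genes). Bub1 (3.72 to 4.05 against 4.30, 4.64 and 4.79, change -0.69) and Pcna (9.16 to 9.92 against 9.86, 10.44 and 10.75, change -0.69) were called lower in no other profile, and the groups overlapped in Pcna, while Nusap1 (0.92) and Ccnb2 (0.74) were higher. Tyms was the third gene lower, at -0.60 (adjusted p = 0.00917). Of 15 alternatives Pcna was called in 6 and Tyms in 5, and both were lost with hybridization day as a fixed block (adjusted p = 0.0428 and 0.0225) and by the unmoderated test (adjusted p = 0.0244 and 0.0326), Pcna also without any 1 replicate. In these arrays 4 endothelial markers (summed level 119 to 338 against 374 to 819) and 1 stellate marker were called lower and 1 hepatocyte marker higher, and their part was not tested. Rapamycin, an mTOR inhibitor, had 1 gene higher and none lower at 20 µM (1.34% and 3.24%), Mcm7 at 0.77. Dexamethasone, a glucocorticoid, had 1 higher and 1 lower at 456 µM (4.33% and 4.89%), Tk1 (7.02, 7.21 and 7.58 against 6.07, 6.49 and 6.69, change 0.80) and Tyms (-0.79). With hybridization day as a fixed block Tk1 was at 0.56, under the fold bound, and Tyms had an adjusted p of 0.0107, so that neither was called. Hepatocyte markers lay above vehicle (summed level 83100 to 89000 against 68800 to 75200, 2 called higher) and 2 endothelial markers were called lower, whose part was not tested. Of the kinase inhibitors in campaign 2, Mln-518 had none higher and 1 lower at 51 µM (5.73% and 9.66%), Tyms at -0.95, while erlotinib, gefitinib and imatinib had none called (0.0281%, 3.32% and 0.591% of all genes higher, 0.0563%, 5.94% and 0.528% lower). Kupffer markers were lower in these arrays: 9 of 10 were called lower with Mln-518 (summed level 815 to 3160 against 3440 to 5270) and 9 with gefitinib (766 to 2790 against 3440 to 5270), and 2 with imatinib. With Mln-518 4 of 5 endothelial, 3 hepatocyte, 1 stellate and 2 bile duct markers were called lower too, and with gefitinib 2 hepatocyte, 1 endothelial and 1 bile duct marker, and their part in the result was not tested. Transforming growth factor beta-1 had none called (2.32% and 2.55%).

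Regulators of the cycle, measured as a separate list of 27 genes of which 26 had a probe set, were called higher in 313 tests (9.41%) and lower in 146 (4.39%). Mdm2, the ligase that turns over p53 and is itself a p53 target, was called higher in 56 profiles, and Pcna was called higher in 37 of them (66.1% of those of Mdm2 and 84.1% of those of Pcna). Cdkn1a, the Cdk inhibitor p21, was higher in 37 profiles, 25 of them shared with Pcna. Ccnd1, the cyclin of growth factor response, was lower in 61 profiles and higher in 1, and 35 of those with Ccnd1 lower had Pcna higher. Such often-called genes also meet in the profiles with many genes called, and what this alone would give was not computed. A link between Pcna and these regulators was not tested. Ccnd1 changed by -4.85 with pantoprazole, -3.99 with vinblastine, -3.62 with valdecoxib and -2.69 with ifosfamide, and by 1.04 with idarubicin. In the valeric acid profile Cdkn1a was at -0.000753 and Mdm2 at -0.34, while in the ifosfamide profile Cdkn1a changed by 1.78 and Mdm2 by 1.18. E2f1, an activator of S phase genes, was called in 10 profiles, and Myc in 55 higher and 4 lower.

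Other replication genes and other mitosis genes were also counted, from lists of names. Of 30 other replication genes 27 were measured, with 220 tests higher (6.37%) and 41 lower (1.19%). Fen1, the flap nuclease of Okazaki fragments, was called higher in 58 profiles, Rpa2, of the single-strand binding complex, in 50, Gins4 in 28 and Gmnn, the inhibitor of Cdt1, in 22, and Dut, which clears deoxyuridine triphosphate, was lower in 17. Of 40 other mitosis genes 32 were measured, with 151 tests higher (3.69%) and 112 lower (2.73%). Cks2, a Cdk1 subunit, was higher in 35 profiles and Hmmr, a spindle protein, in 22, whereas Aspm, a spindle pole protein, was lower in 56 and higher in 1. In the valeric acid profile 17 of the other replication genes were higher and none lower, and 16 of the other mitosis genes were higher and 1 lower. The counts with ifosfamide were 6 and 4 for replication and 6 and 2 for mitosis, and with pantoprazole 8 and 1 and 12 and 2.

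Across the 128 profiles, which share control arrays, the changes of these genes were set against each other in pairs. Over 595 pairs the median Pearson r was 0.19 (from -0.40 to 0.77), beside a median of 0.00504 over all pairs of the 14218 genes, and 58 pairs (9.75%, against 4.05% of all pairs) had an r over 0.5. Of the 5 pairs with the highest r, 3 joined a replication gene with a mitosis gene, namely Cdt1 with Ccnb1 (0.77), Cdt1 with Aurka (0.76) and Pcna with Aurka (0.75). Ccnb1 with Bub1 (0.76) lay within mitosis and Cdt1 with Pcna (0.75) within replication. The median was 0.26 within the mitosis genes, 0.24 within the replication genes and 0.14 between them. Outside the 35 genes, those whose change was most like their mean over the profiles were Mad2l1 (r = 0.84), a spindle checkpoint protein, Ube2t (0.82), Med4 (0.82), Fancb (0.79), Gins4 (0.77) and Hmmr (0.76).

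Time in culture had a small effect on these genes in vehicle. Between 52 arrays at 0.67 d and 52 at 1 d, none of the 35 passed both bounds (0.387% of all genes were higher and 0.281% lower), while 7 were higher and 3 lower at an adjusted p of 0.01 or less alone (18.9% and 16.7% of all genes), and 18 had an unadjusted p under 0.05. Cdk1 was higher by 0.20 at 1 d (SE 0.0439), Mcm4 by 0.14, Mcm2 and Mki67 by 0.13, whereas Rfc4 was lower (-0.18), as were Ccne2 and Pcna (both -0.14). The unmoderated linear model called none of them past both bounds either.

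Whether the response to a compound differed between 0.67 d and 1 d was tested as an interaction of treatment and time. No gene of the 35 was called in any of the profiles. Over all genes 455 tests were called, in 19 profiles (0.00725% of all tests higher and 0.0177% lower). At so small a share, having no call does not set the 35 genes apart. Of the tests of these genes, 258 (5.76%) had an unadjusted p under 0.05, against 4.77% of all tests. The unmoderated test called none too. With pantoprazole Mcm2 changed by 0.86 at 0.67 d and by 1.68 at 1 d (adjusted p of the difference = 0.0202), and Bub1 by 1.33 and 2.23 (adjusted p = 0.0728). With the replicate number as a block the pantoprazole difference in Mcm2 was called (0.82, SE 0.12, adjusted p = 0.0035).

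In the dose series of campaign 5, in which methapyrilene, omeprazole, clofibrate, carbon tetrachloride, busulfan and allyl alcohol were each given at 3 doses, no gene of the 35 had a slope on dose with an adjusted p of 0.05 or less, and over all 14218 genes only clofibrate had any such slope, in 1 gene (0.00703%). At an unadjusted p under 0.05, 3 of the 35 had a higher slope with carbon tetrachloride, 3 with methapyrilene, 1 with clofibrate and 1 with omeprazole, and 1 had a lower slope with omeprazole. The unmoderated test called none. Arrays of campaign 5 with the same replicate number deviated together, and with that number as a block 146 genes had a slope with clofibrate, 24 with omeprazole, 11 with busulfan and none with the other 3 compounds, again with none of the 35 among them. The methapyrilene arrays differed by replicate number. Cdt1 read 5.64, 7.14 and 5.08 at 100 µM in replicates 1, 2 and 3, then 6.77, 5.33 and 5.91 at 300 µM and 7.69, 4.91 and 6.88 at 500 µM, beside 4.81, 5.42 and 4.63 in vehicle. Pcna read 10.94, 11.55 and 10.47 at 100 µM, 11.55, 10.33 and 11.02 at 300 µM and 11.92, 10.29 and 11.43 at 500 µM. In replicates 1 and 3 both genes were higher at each higher dose, and in replicate 2 the highest level was at the lowest dose. Without replicate 2, 2196 of all 14218 genes had a slope with methapyrilene and 7 of the 35 were among them, a share near that of all genes. The directions over all genes were not counted. The 7 genes were all higher with dose: Cdt1 (0.96 per dose step, SE 0.177, adjusted p = 0.0147), Pcna (0.49), Aurka (0.39), Ccnb1 (0.36), Mcm7 (0.26), Ccnb2 (0.22) and Nusap1 (0.21). The cause of the order in replicate 2 was not tested.

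**Figure D5:**
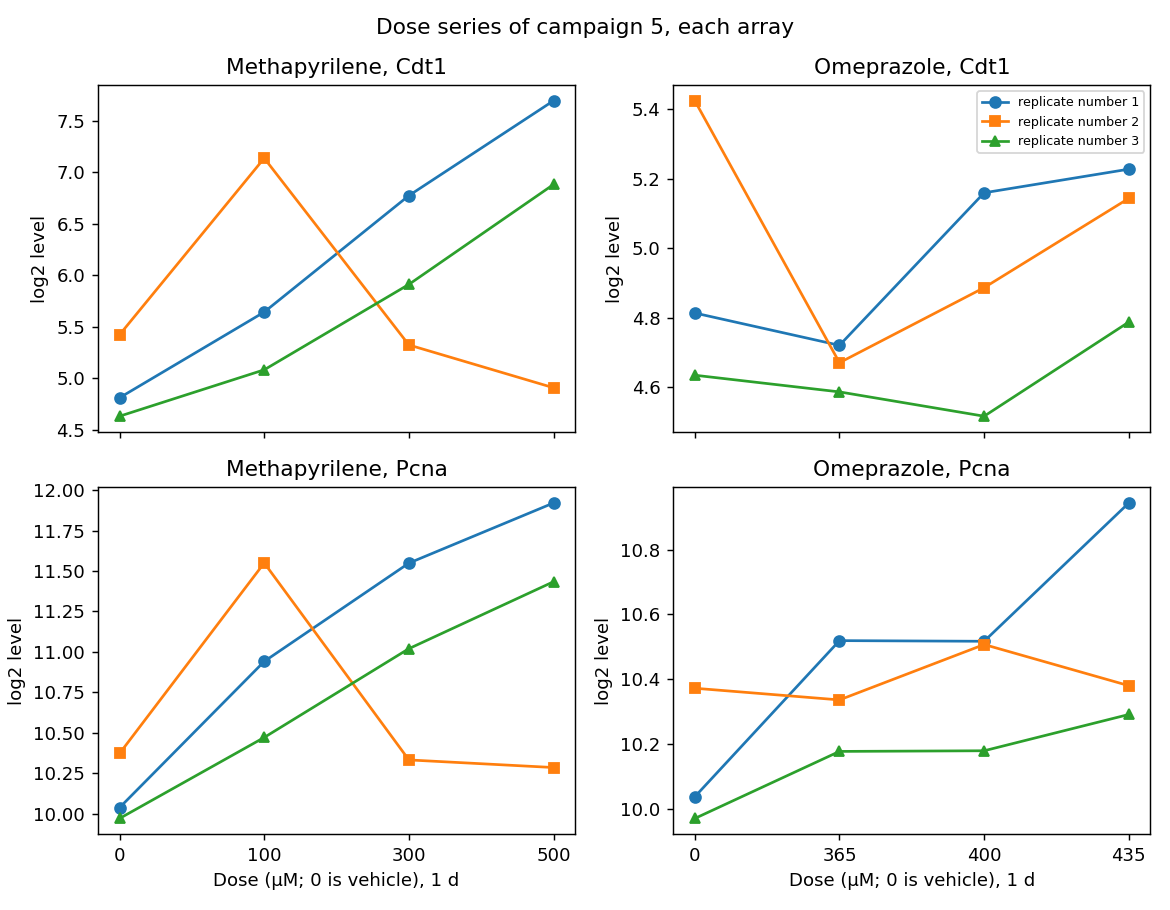
log2 level of Cdt1 and Pcna at 1 d in each array of the methapyrilene and omeprazole dose series, with lines joining arrays of the same replicate number and vehicle at 0. With methapyrilene Cdt1 goes from 5.64 to 7.69 in replicate 1 and from 7.14 to 4.91 in replicate 2 between 100 and 500 µM, whereas no omeprazole array reaches the Cdt1 level of vehicle replicate 2 (5.42).

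For 7 compounds the same dose was tested again at 1 d in another campaign, and none of these genes was called the same way in both. Methapyrilene at 300 µM had 8 genes called in campaign 1, where 1932 of all genes were called. In campaign 5 it had none, and no gene at all was called. Still, Cdt1 changed by 1.85 (SE 0.125) in the first and 1.05 (SE 0.38) in the second, Pcna by 1.33 and 0.84, and Aurka by 1.07 and 0.87. At 300 µM replicate 2 of the repeat lay slightly below the vehicle array of the same number in both Cdt1 and Pcna, and none of these genes was called the same way in both campaigns either without replicate 2 or with the replicate number as a block. Omeprazole at 400 µM had 2 genes called at first, where 1720 of all genes were called. On repeat 943 of all genes were called and none of these, with Cdt1 at -0.10 and Pcna at 0.28. How many of all genes were called the same way in both campaigns was not counted. The other 5 compounds had none of these genes called on either occasion, with at most 389 of all genes called, for chlorpromazine in campaign 1.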

How the data were processed

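Values were the deposited log2 levels of the series table, which the authors made from the scanned arrays by robust multi-array average (RMA) according to the submitters' processing notes, with no version given; chip scanner files were not used here. Of 31099 probe sets, the platform annotation gave 20832 a single gene symbol, 436 several and 9831 none, and the probe set with the highest mean stood for each of 14218 genes. RMA quantile-normalizes all arrays together, so a shift shared by most genes is removed from these values, and array medians lay between 5.41 and 5.73. The number of arrays per group limits the precision.

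Each profile was fitted in limma 3.58.1 (R 4.3.3) with treatment and exposure time over its treated arrays and the vehicle arrays naming it, with Benjamini-Hochberg adjustment over all genes. The study's own rule, a false discovery rate of 0.01 with 1.5-fold, was followed as the call rule, whereas its t-tests with correction for time were replaced by moderated ones, and an unmoderated linear model was run as an alternative. Time in culture was fitted in vehicle arrays with culture day as a block, treatment by time as an interaction term, and dose as a slope over 3 ordered levels, called at an adjusted p of 0.05. The 38 genes, the other gene lists and the role groups were chosen with earlier results of these data known, and the comparison of anthracyclines and thiopurines was added after the data had been examined. The genes and profiles named follow from counts: the 6 genes most often called in each direction, the 6 profiles with the most genes called higher and the 6 with the most called lower, and compounds whose mechanism touches DNA, the spindle or growth signalling; other compounds are named beside these where a gene's extremes or a compound class called for it, after their values were seen.

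On simulated data with log2 changes of 1, 95% of changed genes were recovered in the ifosfamide comparison and 96% in the valeric acid comparison, each over 14218 genes with 0 false calls; slopes of 1 per step were recovered in 93% of genes for methapyrilene, with 14 false calls. In campaigns 1 to 3 same-numbered arrays had correlated deviations (r over 0.1) in 596 of 1007 pairs (median r 0.21), against 859 of 3646 pairs with different numbers (median r -0.07); as this did not hold for every pair, the numbers were not taken as pairs. No 2 arrays held identical values. In campaign 5 this held for 483 of 513 pairs (median 0.54), against 45 of 1026 pairs with different numbers. Promoter sequences came from RefSeq tables of build GRCr8.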

Additional observations from a re-analysis of the deposited data

Results flagged for a closer look

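The mean log2 level of the 35 genes was checked for outlying arrays in 14 groups of 4 to 8 arrays, 13 of vehicle and 1 treated with chlorpromazine, in which chance would mark about 1 group in 20. In campaign 4, replicate 5 of the vehicle arrays (1 d) had a mean of 6.17, while the other 5 lay between 5.46 and 5.70. On this array 25 of the 35 genes were above all other vehicle arrays of the campaign. How many of all genes were above them was not counted, and the array was picked out by the mean of the 35 genes themselves. Ccna2 was higher by 1.86 than the mean of the others, Cdk1 by 1.68, Ccnb1 by 1.52, Mki67 by 1.25 and Plk1 by 1.16. Rrm1 (-0.60), Tyms (-0.44), Rfc4 (-0.24) and Ccne1 (-0.22) went the other way. The mean hepatocyte marker level of this array, 12.41, lay within the range of the others (12.13 to 12.58). In campaign 1, replicate 3 of vehicle control set 12 at 0.67 d had a mean of 5.62, above a next value of 5.48, and replicate 3 of vehicle control set 13 at 1 d had a mean of 5.40, below the others at 5.44 to 5.45. The causes were not tested.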

How the results depend on the processing

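In each named profile up to 5 called genes with the largest change were recomputed under the alternatives. Of these 1253 values 1122 kept their side of the call rule, 131 lost their call and none reversed its direction. Since the genes were picked for being called and for a large change, a reversal was unlikely from the start. Other called genes were not recomputed one by one. A 2-fold bound gave 76 higher and 12 lower calls and 6 genes called in at least 5 profiles, with 6 genes higher for ifosfamide, 6 for pantoprazole, 2 for valdecoxib, 3 for methapyrilene, 1 for diphenhydramine and 1 for sporidesmin A, which had 3 lower, and with 0 differing between idarubicin and daunorubicin. Leaving out the third of genes with the lowest levels, which leaves 17 of the 35, gave 136 higher calls and 9 genes in at least 5 profiles, with 6 higher for valeric acid, 4 for ifosfamide, 5 for pantoprazole, 6 for valdecoxib, 4 for methapyrilene and 1 for sporidesmin A. Renewed quantile normalization gave 6 higher for sporidesmin A, and the 0.67 d arrays alone gave 1 for diphenhydramine.

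Leaving out each replicate number gave 229 to 244 higher calls, 35 to 44 lower calls and 6 to 10 genes higher for valdecoxib (6 without replicate 1), where a number can stand on more than 1 array of a group. It gave 0 to 7 higher dose slopes (7 without replicate 2), 0 to 7 genes differing between idarubicin and daunorubicin (7 without replicate 1, 0 without replicate 3) and 0 to 5 between idarubicin and doxorubicin (5 without replicate 1). Comparing the treated arrays directly gave 2 for the last pair.

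With the replicate number as a block, 272 higher and 37 lower calls were made, 1 interaction was called, and 2 genes differed between idarubicin and daunorubicin and 1 between idarubicin and doxorubicin; the other counts compared stayed within 1.5 times. Interactions numbered 7 with all vehicle arrays of the campaign, among them Bub1 and Ccnb1 with pantoprazole, and 1 each with renewed quantile normalization and with hybridization day as a random or a fixed block. Adding vehicle as a level below the lowest dose gave 2 lower slopes, Ccne2 and Mki67 with omeprazole. With omeprazole 3354 of all genes had a slope in that setting, so these 2 do not set the replication and mitosis genes apart. The cause of each change was not tested. Total higher calls ranged otherwise from 181 (1 d arrays alone) to 289 (all vehicle arrays of the campaign). Low levels of many of these genes limit what a change near the array's floor can show.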

Other observations

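Chlorpromazine, an antipsychotic, was tested at 43.9 µM in campaign 1 and again in campaign 4. In the 1 d arrays 389 of all genes were called in the first and 30 in the second, and none of the 35 replication and mitosis genes in either. Without vehicle replicate 5 of campaign 4, 20 genes were called in the second and again none of the 35.

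Among the genes just outside the 38, the mitosis list held genes that were mainly called lower. Spc24, a kinetochore protein, was called lower in 22 profiles and higher in 6, and Smc2, a condensin subunit, lower in 17 and higher in 2. Among the regulators, Rbl2, the pocket protein p130 of quiescent cells, was called lower in 27 profiles and in none higher, with its outermost change of -1.65 under sporidesmin A, whereas Rb1, the retinoblastoma protein, was called higher in 26 and lower in 1, with its outermost change of 1.48 under valeric acid. E2f5, a repressor E2F, was called higher in 26 profiles and reached 1.52 under valeric acid, and Cdkn2c, an inhibitor of the D-cyclin kinases, was called in 1 profile, higher, at 2.05 under valeric acid.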
